A study of Mus musculus with 18 samples.

Results

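The genes described here are 36 genes of the smooth muscle contractile apparatus and the actin cytoskeleton, with their regulators and without Acta2, chosen by name from the 21959 genes of the deposited table. All 36 were found. RNA was sequenced from MOVAS cells, an immortalised line from mouse aortic smooth muscle, in 18 libraries that form 6 groups of 3. D_I, H_I and B_I are the libraries labelled with isoliensinine, an alkaloid of the lotus, and from their names they were read as its arms on top of doxorubicin, hydrogen peroxide and no stressor. Dox is doxorubicin, a DNA-damaging drug, and H2O2 is hydrogen peroxide, an oxidant; the design text names both as inducers of senescence. Blank is the control group, numbered 1, 2 and 4. All groups share the one cell line, and the labels state neither doses nor times.

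Smooth muscle contracts when calcium and calmodulin switch on myosin light chain kinase, which phosphorylates the regulatory light chain of myosin so that it pulls on actin. Myosin phosphatase reverses the step, and the GTPase RhoA with its kinases ROCK restrains the phosphatase. Tropomyosins, caldesmon and calponins lie along the actin filament, and α-actinin, filamin and vinculin tie filaments together and to the membrane. Transcription of many of these genes depends on serum response factor, Srf, which binds the CArG box, and on its coactivator myocardin, Myocd; smooth muscle cells in culture commonly lower this programme.

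Libraries held 12859609 to 23284077 counts, with at least 20140802 in each Dox library and at most 17955971 in any other. Levels are given as FPKM, counts scaled to gene length and library total, after TMM scaling, edgeR's correction for differences in RNA composition. On the first principal component of all tested genes, with 23.5% of the variance, the libraries Blank_4 and B_I_3 lay apart at -69.7 and -61.3, against -36.2 to 40.1 for the others. The share of counts on ribosomal protein genes was 12.02% in Blank_4 and 11.7% in B_I_3, against 7.84 to 10.4% in the others. Acta2 had 2056 FPKM in Blank_4, against 367 and 410.4 FPKM in the other Blank libraries, and 1765 FPKM in B_I_3, against 511 and 536 FPKM in the other B_I libraries. A colon and liver marker list of 10 genes summed to 1004 CPM (library-scaled counts) in H_I_1, against 73.8 to 375 in the other 17 libraries. A skeletal muscle list of 10 genes held only 4 with enough counts to be tested, and Myog, Tnnc2 and Myf5 were at 0 in every library. The list summed to 69.0 to 77.9 CPM in D_I and 65.2 to 75.3 CPM in Dox libraries. The sum was 53.5 to 62.9 CPM in H_I, 53.6 to 59.6 CPM in H2O2, 51.7 to 63.5 CPM in B_I and 34.1 to 61.8 CPM in Blank libraries.

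The 36 genes together took 1.06 to 1.52% of all counts per library, with Blank_4 at 1.52% and B_I_3 at 1.46%. The cytoplasmic actins stood highest: Actg1 (γ-actin) averaged 892 FPKM over all libraries and Actb (β-actin) 416 FPKM. Between 116 and 263 FPKM came Myl6, the essential myosin light chain, Tagln2 (transgelin-2), Flna (filamin A), the LIM protein Csrp1, the tropomyosin Tpm2, the regulatory light chain Myl9 and the α-actinin Actn4. Of the myosin heavy chains the non-muscle forms led, Myh9 with 43.5 FPKM and Myh10 with 7.68 FPKM, while the smooth muscle form Myh11 averaged 1.04 FPKM. The order of all 36 by mean level was the same with the deposited FPKM. Those use the same counts and gene lengths and differ only by a factor per library, so this is no separate check.

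Most markers that define contractile smooth muscle were low. Tagln (transgelin, SM22α) averaged 0.182 FPKM, with 0 to 20 counts per library, and Myocd 0.0297 FPKM, with 0 to 11 counts per library. Those are the 2 members that did not pass edgeR's filter on low counts, which left 34 members tested. Cnn1 (calponin-1) averaged 1.89 FPKM, Actg2 (enteric γ-actin) 2.33 FPKM, Lmod1 (leiomodin, an actin nucleator) 4.37 FPKM and Des (desmin) 4.93 FPKM. Smtn (smoothelin) at 29.5 FPKM, Srf at 28.0 FPKM and Myl9 at 133 FPKM were well detected. The kinases and phosphatase of the pathway were low too: Mylk (myosin light chain kinase) averaged 0.986 FPKM, Ppp1r12a (the targeting subunit of myosin phosphatase) 1.29 FPKM, Rock2 0.789 FPKM and Rock1 0.234 FPKM, against 57.8 FPKM for Rhoa. In these whole-culture libraries, fewer cells that express a gene and less RNA per cell cannot be told apart. Reads from stretches that the actins Actb, Actg1, Actg2 and Acta2 nearly share may be assigned to the wrong gene or left uncounted. The same holds for the regulatory light chains, Myl9 and Myl12a among them. Gene counts do not separate the isoforms of Tpm1, Cald1 or Mylk.

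**Figure D1:**
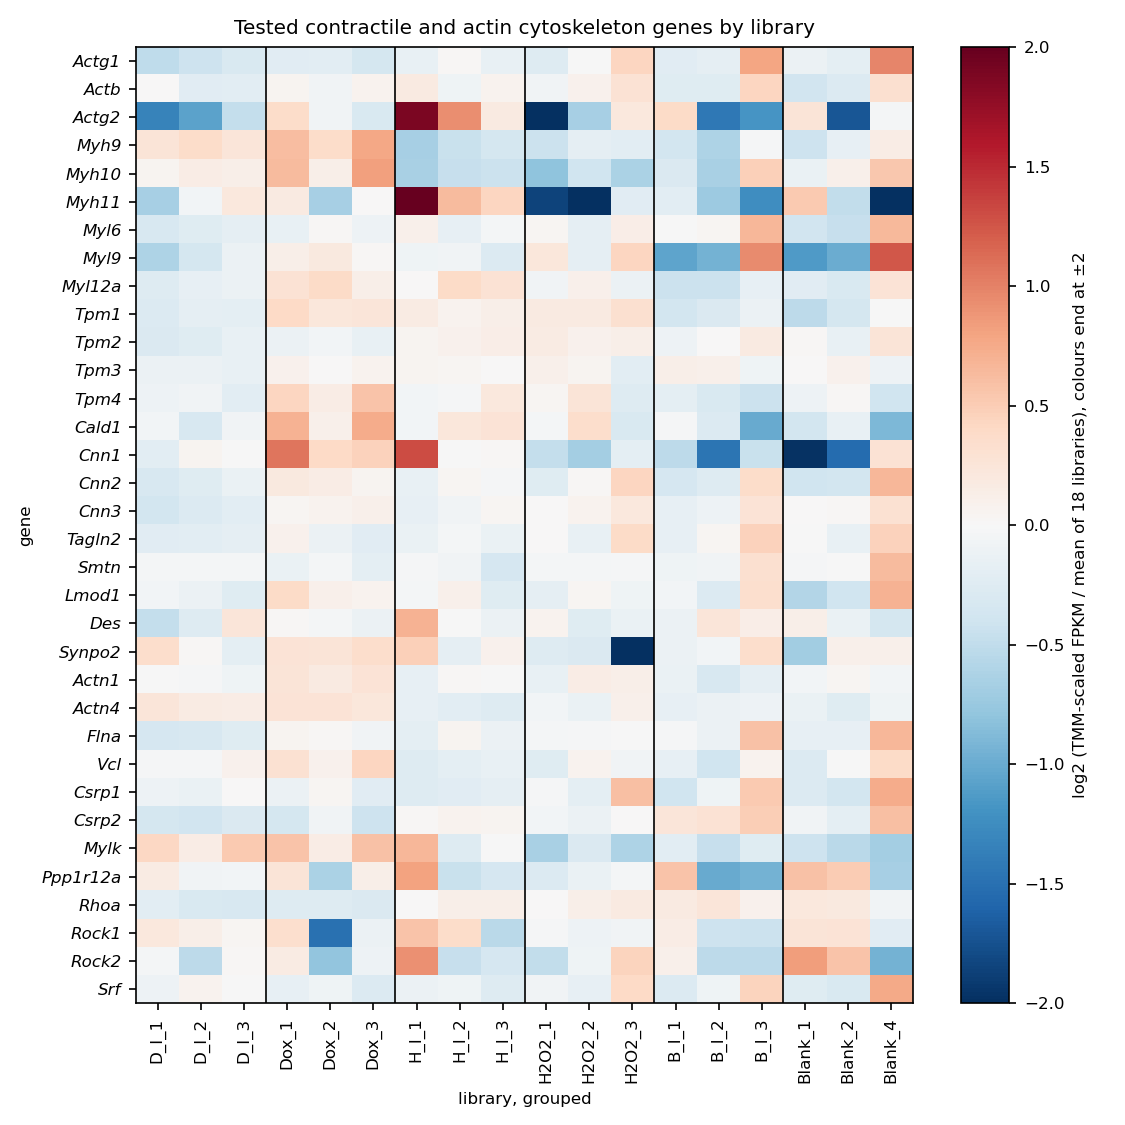
Level of the 34 tested genes in each library, as log2 of TMM-scaled FPKM over the gene's mean of 18 libraries; red is above that mean, blue below, and vertical lines part the groups D_I, Dox, H_I, H2O2, B_I and Blank. Blank_4 and B_I_3 are red for Actg1, Myl9, Flna and Csrp1 where their groups are pale or blue, Myh9 and Mylk are red in D_I and Dox libraries, and H_I_1 is dark red for Myh11 and Actg2.

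Promoter windows from RefSeq (GRCm38.p6; 250 bases before to 50 bases after the start) matched 29 of the 36 genes, in 34 windows. No window was matched for Tagln, Actb, Actg2, Myocd, Rock1, Csrp2 and Myh11. A CArG box, searched on both strands without mismatch, lay in 6 of the 34 windows (17.6%), against 535 of 32851 RefSeq windows of the same length (1.63%). With 1 mismatch it lay in 9 windows (26.5%), against 9.98% of all windows. The motif CATTCC, the core bound by TEAD factors, searched on both strands, lay in 11 windows (32.4%), against 14.7% of all windows. The 6 windows with a box are shown so that their letters can be read beside the levels of these genes in Blank_4 and B_I_3 below; each reads 5′ to 3′ on the gene's strand, and capitals mark the CArG box.
Myl9 (chr2:156775214-156775513, plus strand): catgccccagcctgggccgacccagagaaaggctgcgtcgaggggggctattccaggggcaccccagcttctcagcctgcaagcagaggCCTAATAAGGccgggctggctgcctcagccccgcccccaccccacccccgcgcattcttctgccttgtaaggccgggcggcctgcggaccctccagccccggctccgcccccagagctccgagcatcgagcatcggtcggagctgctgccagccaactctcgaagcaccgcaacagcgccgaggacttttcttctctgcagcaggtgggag
Actg1 (chr11:120348446-120348745, minus strand): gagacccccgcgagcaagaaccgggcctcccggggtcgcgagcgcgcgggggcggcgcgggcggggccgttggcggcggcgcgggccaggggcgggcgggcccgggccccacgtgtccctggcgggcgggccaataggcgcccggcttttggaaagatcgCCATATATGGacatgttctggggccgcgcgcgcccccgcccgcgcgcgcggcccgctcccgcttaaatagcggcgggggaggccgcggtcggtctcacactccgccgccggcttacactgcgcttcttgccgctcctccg
Myl6 (chr10:128492960-128493259, minus strand): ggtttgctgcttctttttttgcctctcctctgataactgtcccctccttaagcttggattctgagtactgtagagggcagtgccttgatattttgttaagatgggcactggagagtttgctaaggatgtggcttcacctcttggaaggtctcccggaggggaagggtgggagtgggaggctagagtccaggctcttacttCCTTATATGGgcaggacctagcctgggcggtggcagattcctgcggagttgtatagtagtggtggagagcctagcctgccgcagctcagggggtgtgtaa
Cnn2 (chr10:79988350-79988649, plus strand): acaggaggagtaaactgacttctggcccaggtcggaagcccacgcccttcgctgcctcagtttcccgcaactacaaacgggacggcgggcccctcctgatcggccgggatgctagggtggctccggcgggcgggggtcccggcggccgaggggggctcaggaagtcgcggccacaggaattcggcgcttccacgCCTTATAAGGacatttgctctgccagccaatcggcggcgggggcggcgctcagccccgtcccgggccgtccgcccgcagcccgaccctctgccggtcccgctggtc
Srf (chr17:46556113-46556412, minus strand): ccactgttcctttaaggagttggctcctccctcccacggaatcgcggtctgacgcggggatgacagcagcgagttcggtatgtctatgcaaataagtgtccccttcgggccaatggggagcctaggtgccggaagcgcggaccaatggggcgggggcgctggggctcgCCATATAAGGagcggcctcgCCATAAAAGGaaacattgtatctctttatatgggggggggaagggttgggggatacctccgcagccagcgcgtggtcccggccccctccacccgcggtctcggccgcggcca
Vcl (chr14:20929148-20929447, plus strand): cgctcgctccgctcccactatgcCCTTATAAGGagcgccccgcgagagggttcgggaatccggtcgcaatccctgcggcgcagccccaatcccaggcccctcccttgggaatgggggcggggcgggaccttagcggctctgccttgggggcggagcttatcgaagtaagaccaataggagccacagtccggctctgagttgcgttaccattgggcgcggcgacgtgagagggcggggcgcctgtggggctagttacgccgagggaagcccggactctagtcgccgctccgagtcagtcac
The first base of the box lay at -161 for Myl9, -90 for Actg1, -50 for Myl6, -56 for Cnn2 and -227 for Vcl relative to the start, and Srf had boxes at -82 and -62. Myl6 had a second window with no box. A match is a description of these letters and shows no binding.

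Within their groups, Blank_4 and B_I_3 had higher levels of several actin filament genes and lower levels of others, such as Cald1. Against the mean of the other 2 Blank libraries, 12 of the 34 tested members were over 1.5 times higher in Blank_4, where 12.3% of all tested genes were. In B_I_3, 9 of 34 were over 1.5 times higher, where 10.5% of all tested genes were. Under 1/1.5 of that mean lay 4 members in Blank_4 (27.6% of all genes) and 4 in B_I_3 (22.6%). These libraries were picked for their values, so no test applies. In H2O2_3, set against the other 2 H2O2 libraries, 4 of 34 members were over 1.5 times higher, where 16.1% of all genes were, and 1 was under 1/1.5 (16.9%).

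Of the tested members, Myl9 differed most: 315 FPKM in Blank_4, against 60.6 and 67.0 FPKM in Blank_1 and Blank_2, and 256 FPKM in B_I_3, against 64.0 and 69.2 FPKM in B_I_1 and B_I_2. That is 4.94 times the other Blank libraries and 3.85 times the other B_I libraries. Actg1 had 1754 FPKM in Blank_4, against 823 and 777 FPKM, a ratio of 2.19, and 1549 FPKM in B_I_3, against 760.3 and 790.3 FPKM, a ratio of 1.998. Both genes were thus higher in the library that lay apart than in any library of the treated groups. The same held for Flna (1.78 times in Blank_4 and 1.58 times in B_I_3) and for Srf in Blank_4 (2.04 times). Srf itself had 47.4 FPKM in Blank_4, against 23.8 and 22.7 FPKM, and 38.1 FPKM in B_I_3, against 23.3 and 26.5 FPKM.

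Other ratios above 1.5 in Blank_4 were 4.08 for Cnn1, 2.27 for Lmod1, 2.11 for Myl6, 2.08 for Csrp1, 2.07 for Cnn2, 1.67 for Csrp2, and 1.56 for both Actb and Smtn. In B_I_3, Myh10 stood at 1.91, Myl6 at 1.57, Csrp1 at 1.70, Cnn2 and Actb at 1.58 and Cnn1 at 1.38 times the other libraries. The γ-to-β ratio of the cytoplasmic actins, Actg1 over Actb, was 3.37 in Blank_4 and 2.77 in B_I_3. It was 1.499 to 2.57 in the other 16 libraries. Not every actin-associated gene followed: Cald1 (caldesmon) stood at 0.643 in Blank_4 and 0.549 in B_I_3, Ppp1r12a at 0.433 and 0.527, Myh11 at 0.213 and 0.576, and Rhoa below the others in both libraries as well. All 6 genes with a CArG box in the windows above were higher in Blank_4 than the mean of the other Blank libraries, from 1.44 times for Vcl to 4.94 times for Myl9. So were 23 of the 34 tested members in all, and 47.6% of all tested genes. Tested members with a window but no box ranged from 0.318 times for Rock2 to 4.08 times for Cnn1. Any part of the box in these levels was not tested. Because both libraries belong to control arms, the counts of called members in each comparison with Blank or B_I below are also given without them; the part of ribosomal protein share in these differences was not tested.

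**Figure D2:**
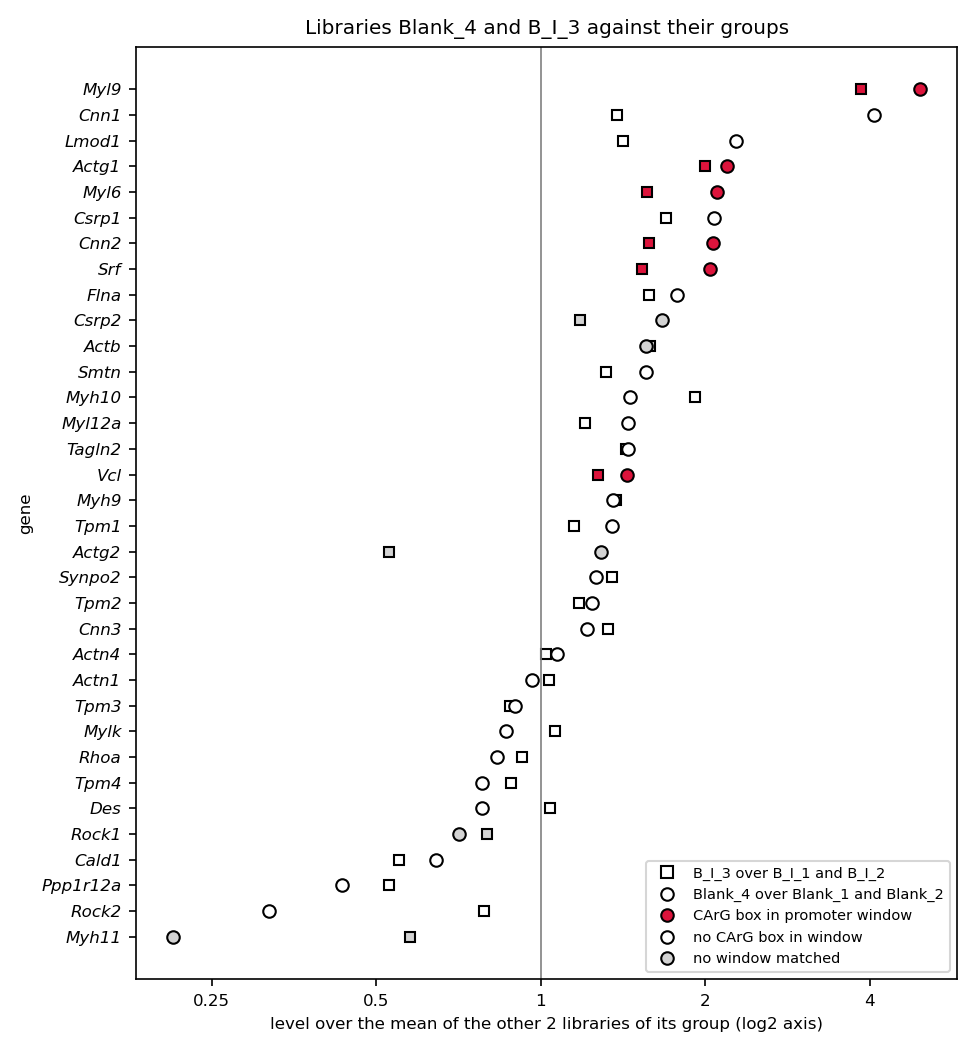
Level of each tested gene in Blank_4 (circles) and B_I_3 (squares) over the mean of the other 2 libraries of its group, on a log2 axis; red marks genes with a CArG box in the promoter window, white those without, grey those with no window. The red symbols lie right of 1, from 1.44 for Vcl to 4.94 for Myl9 in Blank_4, as do 23 of all 34 circles. White circles run from 0.318 for Rock2 to 4.08 for Cnn1. Cald1, Ppp1r12a and Myh11 lie left of 1 in both libraries.

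Doxorubicin without isoliensinine was compared with the control group to see how a senescence inducer moves the contractile genes. In Dox against Blank, 10 of 34 tested members were called at an adjusted p under 0.05 by edgeR's quasi-likelihood test, where 21.7% of all 13375 tested genes were called. Calls are those of this test on all 18 libraries unless another fit is named. Of these, 8 rose (10.3% of all genes rose) and 2 fell (11.4% fell). In 9 members every Dox library lay above every Blank library (19.6% of all tested genes), and in 3 below (16.5%). The median log2 fold change of the members was 0.07, against 0.08 for all tested genes. The members that rose were the non-muscle myosin heavy chain Myh9, the kinase Mylk, the filament-binding genes Tpm1, Tpm4, Cald1 and Cnn1, and both α-actinins; those that fell were Rhoa and the LIM protein Csrp2.

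Myh9, which lies at chr15:77644787-77726375 in the deposited coordinates, whose build is not given, is the heavy chain of non-muscle myosin IIA and the motor of stress fibres. It had 66.5, 56.0 and 74.6 FPKM in Dox libraries, against 32.6, 38.8 and 48.4 FPKM in Blank libraries, with no overlap. The log2 fold change was 0.72 ± 0.15 (SE; edgeR adjusted p = 0.00139). Mylk (chr16:34565580-34822790) had 1.47, 1.10 and 1.48 FPKM in Dox libraries, against 0.741, 0.678 and 0.614 FPKM in Blank libraries. Every Dox library lay above every Blank library, at a log2 fold change of 0.99 ± 0.23 (SE; edgeR adjusted p = 0.00315). Mylk was thus 1.99-fold higher in Dox, at a low level in both groups.

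Among the filament-binding genes, Tpm1 (chr9:66929872-66956688), a tropomyosin gene with muscle and non-muscle isoforms, had 67.7, 60.4 and 60.8 FPKM in Dox libraries, against 35.7, 40.2 and 51.2 FPKM in Blank libraries. Its log2 fold change was 0.57 ± 0.11 (SE; edgeR adjusted p = 0.000713). Tpm4, a non-muscle tropomyosin of stress fibres, had 78.5, 64.7 and 86.2 FPKM in Dox libraries, against 54.2, 59.3 and 44.3 FPKM in Blank libraries (log2 fold change 0.54 ± 0.13, edgeR adjusted p = 0.00564). The other tropomyosins, Tpm2 and Tpm3, were not called. The share of Tpm1 in the summed tropomyosin FPKM was 17.0 to 18.8% in Dox libraries, against 11.3 to 14.9% in Blank libraries. Cald1, which restrains actomyosin, had 9.66, 6.39 and 9.90 FPKM in Dox libraries, against 4.61, 5.37 and 3.21 FPKM in Blank libraries (log2 fold change 0.98 ± 0.23, edgeR adjusted p = 0.00412). In all of Tpm1, Tpm4 and Cald1, the Dox and Blank libraries did not overlap.

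Cnn1, a marker of differentiated smooth muscle, had 3.98, 2.50 and 2.60 FPKM in Dox libraries, against 0.478, 0.653 and 2.31 FPKM in Blank libraries. The groups did not overlap, but Blank_4 lay close to the lowest Dox library. The log2 fold change was 1.42 ± 0.46 (SE; edgeR adjusted p = 0.0319). Without Blank_4 and B_I_3 it was 2.39. The call was lost without Blank_1 (adjusted p = 0.143), Blank_2 (0.120), Dox_1 (0.134) or Dox_3 (0.0542), and when the 2 groups were fitted alone (0.0886).

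Actn4, an α-actinin that cross-links actin, had 139.9, 140.2 and 135 FPKM in Dox libraries, against 105, 98.2 and 109 FPKM in Blank libraries (log2 fold change 0.41 ± 0.09, edgeR adjusted p = 0.00138). Its paralog Actn1 had a log2 fold change of 0.26, called at 0.0498 and lost in 21 of 26 alternatives, where its adjusted p reached 0.163; without Blank_1 it was 0.151, without Blank_4 0.135, without Dox_1 0.128 and without Dox_3 0.153. Rhoa (chr9:108183328-108215133), the GTPase upstream of ROCK, had 48.1, 48.1 and 47.5 FPKM in Dox libraries, against 67.1, 65.9 and 55.3 FPKM in Blank libraries. Its log2 fold change was -0.39 ± 0.09 (SE; edgeR adjusted p = 0.00336), and limma on the deposited FPKM gave an adjusted p of 0.133. Csrp2, a LIM protein of smooth muscle, had a log2 fold change of -0.43 with overlapping groups, and its call was lost in 14 of 26 alternatives, among them without Blank_4 (adjusted p = 0.333), Dox_1 (0.140) or Dox_3 (0.182). Rock1, Rock2 and Ppp1r12a were not called by edgeR with all libraries.

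Leaving out Blank_4 and B_I_3, a pair picked because it lies apart, also changed which members were called. The members called numbered 16 of 34 without them, where 22.4% of all genes were called, and 15 of them were higher in Dox, where 10.4% of all genes were. Myl9 moved from overlap to a call: its log2 fold change was -0.03 with all libraries and 1.15 without the pair, with 144, 152 and 135 FPKM in Dox libraries. Actb, Cnn2, Lmod1, Myh10, Myl12a, Myl6 and Vcl were also called higher without the pair, at log2 fold changes of 0.31 to 0.66, and Actn1 and Csrp2 were no longer called. Smtn (log2 fold change -0.36, adjusted p = 0.0822) and Srf (-0.32, 0.346) were not called with all libraries, and stood at -0.14 and 0.077 without the pair. Dox libraries were also the deepest. Every D_I and Dox library had a higher sum of the skeletal muscle list than any B_I or Blank library. Only 4 of the 10 genes on that list passed the filter on low counts, so the sum rests on few genes. The parts of depth and of these markers were not tested.

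The comparison of D_I with B_I has the same form but uses 6 other libraries, with isoliensinine on both sides. It called 5 of 34 members, where 18.8% of all tested genes were called. Myh9, Mylk and Actn4 rose (9.41% of all genes rose) and Rhoa and Csrp2 fell (9.41% fell). Those 5 were all among the 10 members called in Dox against Blank, in the same direction; over all tested genes, 1775 calls were shared in direction, which is 61.3% of the Dox against Blank calls and 70.5% of the D_I against B_I calls.

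Myh9 had 52.2, 56.1 and 51.5 FPKM in D_I libraries, against 33.7, 28.3 and 42.7 FPKM in B_I libraries (log2 fold change 0.61 ± 0.15, edgeR adjusted p = 0.00607). Mylk had 1.32, 1.09 and 1.42 FPKM in D_I libraries, against 0.853, 0.716 and 0.832 FPKM in B_I libraries (log2 fold change 0.67 ± 0.23, edgeR adjusted p = 0.0421). Actn4 had 138, 129.8 and 128 FPKM in D_I libraries, against 103, 107 and 108 FPKM in B_I libraries (log2 fold change 0.31 ± 0.09, edgeR adjusted p = 0.0124). None of these 3 overlapped between groups. Mylk lost its call in 12 of 26 alternatives, among them without any 1 of the D_I and B_I libraries, with adjusted p up to 0.163 without B_I_2, while Myh9 lost it only without B_I_2 (0.0506) and Actn4 only without D_I_1 (0.0658).

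Rhoa had 49.7, 46.9 and 46.5 FPKM in D_I libraries, against 65.2, 68.0 and 61.5 FPKM in B_I libraries, at a log2 fold change of -0.44 ± 0.09 (SE; edgeR adjusted p = 0.00141), and limma gave an adjusted p of 0.0515. Csrp2 had 33.6, 32.7 and 35.1 FPKM in D_I libraries, against 50.4, 52.2 and 60.5 FPKM in B_I libraries, at -0.69 ± 0.15 (SE; edgeR adjusted p = 0.0027). Both genes were below every B_I library in every D_I library. Tpm1, Tpm4 and Cald1, called in Dox against Blank, were not called here. Tpm1 had 42.6, 45.4 and 44.8 FPKM in D_I libraries, against 39.99, 42.1 and 47.4 FPKM in B_I libraries. In 9 of 34 members all D_I libraries lay below all B_I libraries (17.1% of all tested genes), among them Actg1, Flna, Myl6, Tpm2 and Cnn3, and in 5 they lay above (21.1%). Without Blank_4 and B_I_3, 9 members were called, where 21.7% of all genes were, with Myh10 and Myl9 added as higher and Flna, Myl6 and Tpm3 as lower; Mylk was not called (adjusted p = 0.0624).

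**Figure D3:**
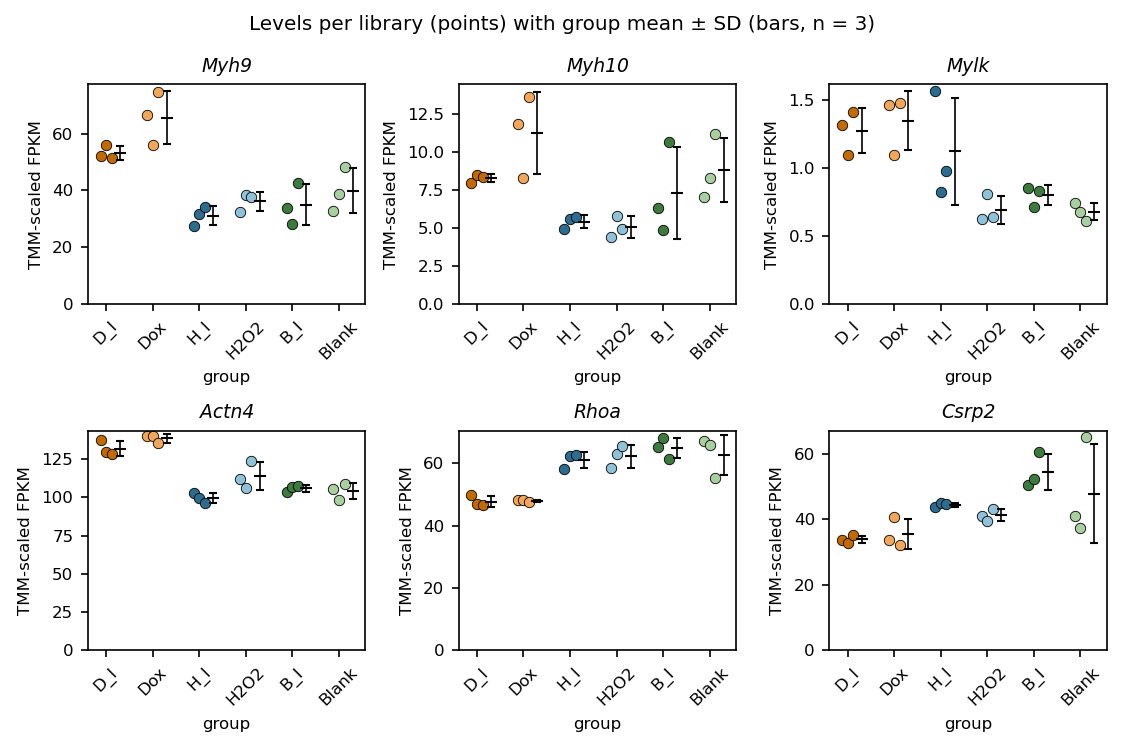
TMM-scaled FPKM per library (points) with group mean ± SD (bars, n = 3) for Myh9, Myh10, Mylk, Actn4, Rhoa and Csrp2 in D_I, Dox, H_I, H2O2, B_I and Blank. D_I and Dox libraries lie above B_I and Blank libraries for Myh9, Mylk and Actn4 and below them for Rhoa, while Myh10 and Csrp2 overlap between Dox and Blank.

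Hydrogen peroxide gave few called members with all 18 libraries, and more without Blank_4 and B_I_3, as given below. In H2O2 against Blank, 1 of 34 members was called, where 1.43% of all tested genes were. Tpm1 rose (0.636% of all genes rose), with 58.3, 58.1 and 64.6 FPKM in H2O2 libraries, against 35.7, 40.2 and 51.2 FPKM in Blank libraries. Its log2 fold change was 0.51 ± 0.11 (SE; edgeR adjusted p = 0.0202), and the groups did not overlap. No other member lay higher without overlap (5.91% of all genes did), 2 lay lower (7.79%), and 0 were called lower (0.793%). The call was lost without Blank_1 (adjusted p = 0.0702) or Blank_2 (0.0694), and when the 2 groups were fitted alone (0.444). Myh10, the heavy chain of non-muscle myosin IIB, had 4.40, 5.80 and 4.95 FPKM in H2O2 libraries, against 7.04, 8.28 and 11.2 FPKM in Blank libraries, and was not called by edgeR with all libraries (log2 fold change -0.80, adjusted p = 0.0848), while DESeq2 gave an adjusted p of 0.0229.

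Without Blank_4 and B_I_3, a pair picked by its values, 6 members were called in H2O2 against Blank, where 4.02% of all genes were. Only Blank_1 and Blank_2 then stand for Blank. Tpm1, Myl9 (log2 fold change 1.25), Myl6 (0.44), Cnn2 (0.49) and Actb (0.44) were higher and Myh10 (-0.58) lower. Myl9 had 155, 118 and 179.6 FPKM in H2O2 libraries, against 60.6 and 67.0 FPKM in Blank_1 and Blank_2. Acta2, the smooth muscle actin, had 1082, 989.7 and 1368 FPKM in H2O2 libraries. Its log2 fold change was 0.28 with all libraries and 1.57 without the pair. Acta2 is among the values by which the pair was described as lying apart. Its larger change without the pair therefore follows from that choice and says nothing further about peroxide.

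In H_I against B_I, 1 of 34 members was called, where 1.46% of all tested genes were. Myl12a, a regulatory light chain of non-muscle myosin, rose (0.464% of all genes rose), with 53.9, 69.6 and 65.8 FPKM in H_I libraries, against 39.8, 39.8 and 48.0 FPKM in B_I libraries. Its log2 fold change was 0.57 ± 0.13 (SE; edgeR adjusted p = 0.0396), and 0 members were called lower (0.994%). In 5 members every H_I library lay above every B_I library (11.1% of all genes), and in 2 below (12.1%). For Myl12a the groups did not overlap, but the call was lost in 11 of 26 alternatives, with adjusted p of 0.143 without H_I_2, 0.141 without H_I_3 and 0.118 without B_I_2. Without Blank_4 and B_I_3, Myl12a, Tpm1 (log2 fold change 0.46) and Myl9 (0.86) were called higher, where 1.83% of all genes were called. Tpm1 had 57.7, 54.2 and 56.0 FPKM in H_I libraries, against 39.99, 42.1 and 47.4 FPKM in B_I libraries.

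The effect of isoliensinine itself was compared within each background. In B_I against Blank, 0 of 34 members were called by edgeR, where 0% of all tested genes were, and 0 members had an unadjusted p under 0.05, against 4.79% of all genes. Actn1 was the single member whose groups did not overlap, lower in B_I (3.72% of all genes), and 0 members lay higher without overlap (3.57%). Leaving the pair Blank_4 and B_I_3 out gave 0 called members as well, where 0.0224% of all tested genes were called.

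In D_I against Dox, 0 members were called by edgeR with all libraries, where 0% of all tested genes were, and DESeq2 called Tpm1 and Tpm4 lower, where it called 0.0523% of all genes lower. The members nevertheless leaned one way. In 15 of 34, every D_I library lay below every Dox library, where 8.62% of all tested genes did, and in 1, Smtn, every D_I library lay above (10.2%). The median log2 fold change was -0.18 for the members and -0.00 for all tested genes. The 15 were Tpm1, Tpm3 and Tpm4, Cald1, the calponins Cnn1, Cnn2 and Cnn3, the light chains Myl6, Myl9 and Myl12a, Actg2, Actn1, Flna, Lmod1 and Vcl. Unadjusted p was under 0.05 for 6 members, all lower in D_I, against 4.16% of all genes in either direction and 2% lower.

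Tpm1 had 42.6, 45.4 and 44.8 FPKM in D_I libraries, against 67.7, 60.4 and 60.8 FPKM in Dox libraries, at a log2 fold change of -0.51 ± 0.11 (SE; edgeR adjusted p = 0.341). Myl12a had 44.8, 47.7 and 49.2 FPKM in D_I libraries, against 65.7, 69.9 and 58.3 FPKM in Dox libraries, at -0.45 ± 0.13 (SE; edgeR adjusted p = 0.763). Both were called lower without Blank_4 and B_I_3, at edgeR adjusted p of 0.00206 for Tpm1 and 0.0448 for Myl12a, where 0.142% of all genes were called, although neither library belongs to D_I or Dox and the fitted changes were -0.51 and -0.46; those libraries enter through the spread that all groups share.

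The result depended on which libraries gave the spread. Fitted on the 6 D_I and Dox libraries alone, edgeR called 10 of 34 members lower and 0 higher, where 0.987% of all tested genes were lower, 0.807% higher and 1.79% either. The 10 were Tpm1, Tpm4, Cald1, Cnn2, Cnn3, Myl9, Myl12a, Myh9, Actn1 and Flna, at log2 fold changes of -0.28 to -0.69. Rhoa, Csrp2, Actn4 and Mylk, which differed between D_I and B_I, had D_I against Dox log2 fold changes of -0.01, -0.07, -0.07 and -0.08 and were called in neither fit. The interaction, which sets D_I against Dox beside B_I against Blank, called 0 members and 0% of all genes with all libraries, with 2 members at an unadjusted p under 0.05, against 3.9% of all genes. Without Blank_4 and B_I_3 it called Tpm1 and 0.0598% of all genes, with a log2 difference of -0.63 for Tpm1 (edgeR adjusted p = 0.0288). Dox libraries were deeper than D_I libraries, and the part of depth was not tested.

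**Figure D4:**
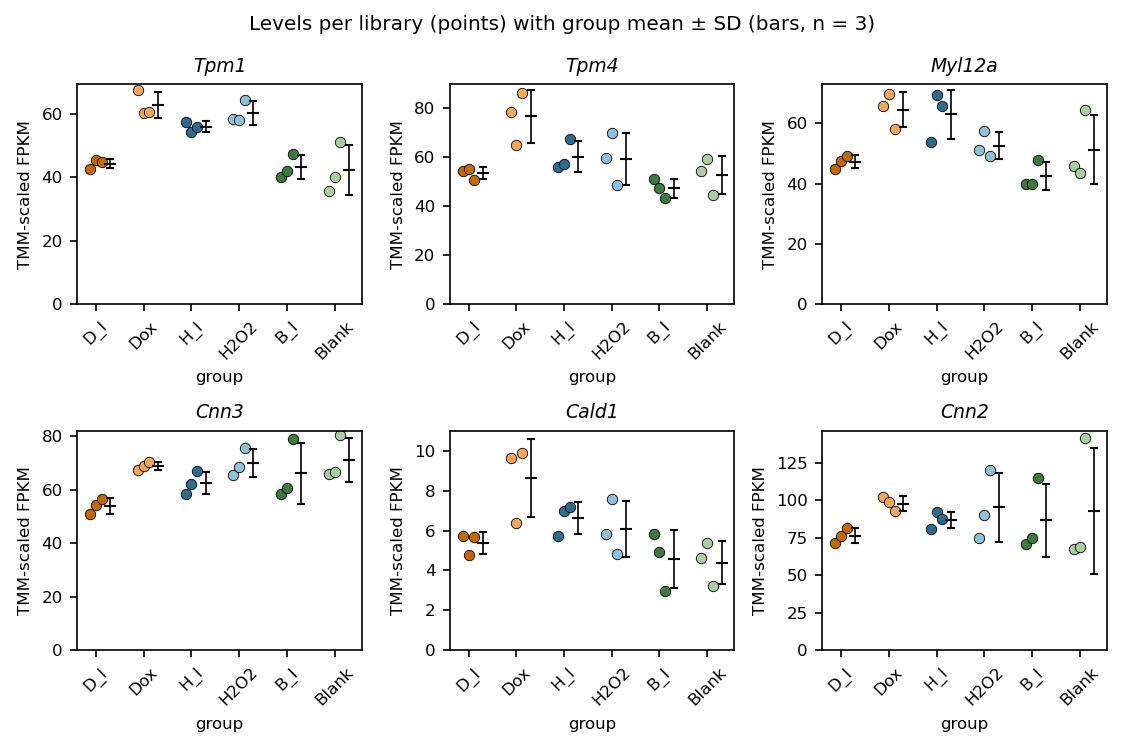
TMM-scaled FPKM per library (points) with group mean ± SD (bars, n = 3) for Tpm1, Tpm4, Myl12a, Cnn3, Cald1 and Cnn2 in D_I, Dox, H_I, H2O2, B_I and Blank. For all 6 genes every D_I library lies below every Dox library; edgeR with all 18 libraries called none of these differences, and DESeq2 called Tpm1 and Tpm4.

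In H_I against H2O2, 0 members and 0% of all tested genes were called by edgeR, and 6 members had an unadjusted p under 0.05, against 6.84% of all genes. In 5 members every H_I library lay above every H2O2 library (7.01% of all genes) and in 2 below (5.12%). The interaction with B_I against Blank called 0 members and 0% of all genes, with 3 members at an unadjusted p under 0.05, against 6.08%. Myh11, the smooth muscle myosin heavy chain, had 4.17, 1.61 and 1.39 FPKM in H_I libraries, against 0.288, 0.171 and 0.889 FPKM in H2O2 libraries. The log2 fold change was 2.43 ± 0.60 (SE; edgeR adjusted p = 0.280), with no overlap and with H_I_1 far above the rest. Cnn1 had 4.67, 1.87 and 1.92 FPKM in H_I libraries, against 1.37, 1.18 and 1.65 FPKM in H2O2 libraries (log2 fold change 1.01, adjusted p = 0.682). H_I_1 was also highest for Actg2, with 8.62 FPKM, against 4.44 and 2.64 FPKM in H_I_2 and H_I_3.

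That library also carried the highest level of colon and liver markers. The list summed to 1004, 320.5 and 375 CPM in H_I libraries, against 100.05, 73.8 and 247 CPM in H2O2 libraries. In 6 of 6 groups the library with the highest sum was also the highest of its group for Myh11, Actg2 and Rock2, which 0.927% of all tested genes were; for Ppp1r12a it was so in 5 groups, which 3.23% were. The remaining 30 tested members matched in 0 to 4 groups. Without Blank_4, B_I_3, H2O2_3 and H_I_1, a selection made after the values were seen, Myh11 in H_I against H2O2 was called (log2 fold change 2.69, edgeR adjusted p = 0.000322). The part of these markers in the Myh11 and Actg2 levels was not tested.

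**Figure D5:**
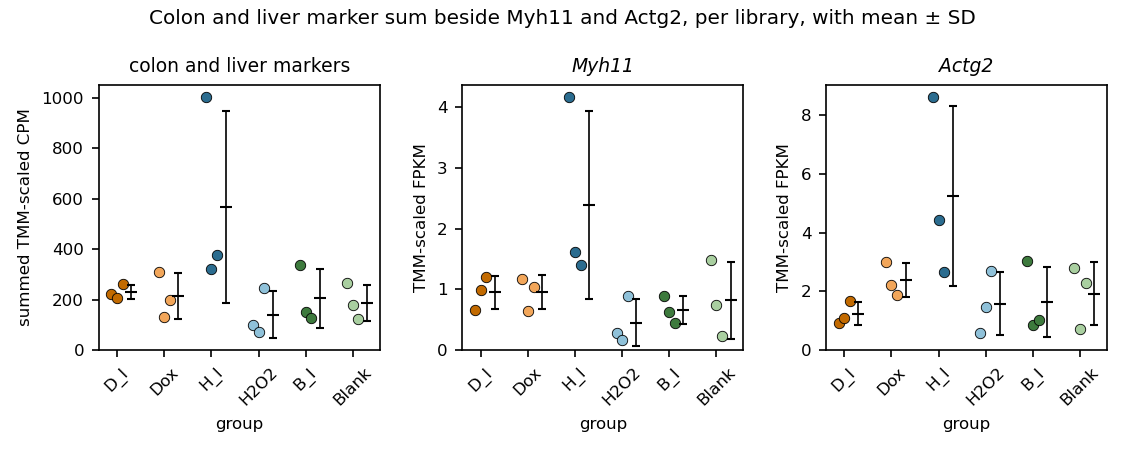
Summed CPM of 10 colon and liver markers, and TMM-scaled FPKM of Myh11 and Actg2, per library (points) with group mean ± SD (bars, n = 3) in D_I, Dox, H_I, H2O2, B_I and Blank. H_I_1 is highest in all panels, at 1004 CPM, 4.17 FPKM and 8.62 FPKM.

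The 2 stressors were also set against each other. Dox against H2O2 called 5 of 34 members (14.7%), close to the 13.1% of all tested genes that were called. Myh9, Myh10, Mylk and Actn4 were higher in Dox (6.73% of all genes) and Rhoa was lower (6.33%). Myh10 had 11.9, 8.31 and 13.6 FPKM in Dox libraries, against 4.40, 5.80 and 4.95 FPKM in H2O2 libraries, at a log2 fold change of 1.16 ± 0.23 (SE; edgeR adjusted p = 0.00187). Myh9 differed by 0.86 ± 0.15 (adjusted p = 0.000575), against 32.4, 38.5 and 37.6 FPKM in H2O2 libraries. For Mylk the H2O2 libraries had 0.626, 0.809 and 0.641 FPKM (log2 fold change 0.96, adjusted p = 0.00729), and for Rhoa 58.4, 62.9 and 65.7 FPKM (-0.38, 0.00752). The groups did not overlap in these 4 genes; in all, 10 members lay higher in Dox without overlap (19% of all genes) and 2 lower (13.6%). None of the 4 lost its call in any of the 26 alternatives run. Actn4 (0.28, adjusted p = 0.0321) lost it in 12 of 26, with adjusted p up to 0.125 with no filter on low counts and 0.113 without H2O2_2. Tpm1, which was higher than Blank in both groups, had 67.7, 60.4 and 60.8 FPKM in Dox and 58.3, 58.1 and 64.6 FPKM in H2O2 libraries. This comparison shares its Dox and H2O2 libraries with those above. Without Blank_4 and B_I_3, which are in neither group, it called 12 members, where 21.2% of all genes were called.

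Genes around the core apparatus were read from lists of the pathway. In Dox against Blank, 0 of 12 Srf cofactors and partner factors were called. Without Blank_4 and B_I_3, 1 rose and 1 fell, where 10.4% of all tested genes rose and 12.1% fell. Of 27 genes of RhoA signalling and myosin phosphatase, 5 rose and 2 fell, where 10.3% of all tested genes rose and 11.4% fell. With the 2 groups fitted alone 1 rose and 2 fell, where 6.27% of all tested genes rose and 8.74% fell. Arhgdia, which holds GTPases of the RhoA family inactive, fell, with a log2 fold change of -0.59, as did the GTPase Rhoc (-0.58), while the formin Diaph1 (0.38) and the RhoA antagonist Rnd3 (0.96) rose. Of 29 actin turnover genes 2 rose and 5 fell, and with the 2 groups fitted alone 1 rose and 2 fell. With all libraries the actin-sequestering Tmsb10 (-0.89) and the elongation factor Evl (-0.46) fell, and cortactin Cttn (0.60) and the Arp2/3 subunit Actr2 (0.66) rose.

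Of 27 tested focal adhesion and cross-linker genes, 5 rose and 2 fell in Dox against Blank, among them plastin-3, Pls3 (0.88), palladin, Palld (0.65) and moesin, Msn (0.58). Of 22 other tested smooth muscle contraction genes, 5 rose and 3 fell, among them the calcium pump Atp2a2 (0.70), the IP3 receptor Itpr1 (0.87), the light chain Myl6b (-0.75) and the kinase Camk2d (-0.61). Of these 22, 2 rose and 2 fell without Blank_4 and B_I_3 (10.4% and 12.1% of all genes). The counts were the same with the 2 groups fitted alone (6.27% and 8.74%). Summed over the 117 tested genes of the 5 lists, 29 were called in Dox against Blank (21.7% of all tested genes), 28 without Blank_4 and B_I_3 (22.4%) and 15 with the 2 groups fitted alone (15%). In D_I against B_I the counts higher and lower were 1 and 0 for Srf partners, 5 and 3 for RhoA signalling, 1 and 3 for actin turnover, 4 and 5 for focal adhesion and 2 and 4 for other contraction genes, where 9.41% of all genes were called in each direction. That is 28 in all, and 38 without Blank_4 and B_I_3, where 21.7% of all genes were called. Arhgdia (-0.57), Diaph1 (0.55), Tmsb10 (-0.90), Cttn (0.49) and Atp2a2 (0.56) were called there in the direction they had in Dox against Blank. The lists held 1 call in H2O2 against Blank, the Arp2/3 subunit Arpc1a (-0.45), where 1.43% of all genes were called. In H_I against B_I they held 1 call, Evl (-0.45), where 1.46% of all genes were called. They held 6 calls without the pair (4.02% of all genes) in H2O2 against Blank and 4 in H_I against B_I (1.83%). The lists held 0 calls in B_I against Blank, with all libraries and without the pair, and 0 in H_I against H2O2 with all libraries. In Dox against H2O2 they held 20 calls, 14 higher and 6 lower (13.1% of all genes were called), and 35 without the pair (21.2%). In D_I against Dox they held 0 calls with all libraries (0% of all genes) and 1 lower without the pair (0.0673%). With the 2 groups fitted alone they held 1 higher and 8 lower (0.807% and 0.987%).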

How the data were processed

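Poly-A RNA was sequenced from 18 libraries, grouped by sample title; the design text speaks of biological replicates. The deposited table holds read counts per gene, and the FPKM in it, made by the authors, equalled the formula on those counts in 100% of values (relative difference within 1e-06). The submitters' processing notes name fastp 0.22.0, HISAT2 2.1.0 and HTSeq 0.9.1; the genome build and strandedness are not stated there or in the labels. Of 21959 genes, 51 without a symbol (0.0187% of counts) were kept under their identifier, and 0 columns belonged to no sample. Within groups, replicate pairs had a chi-square of at least 5.51 per degree of freedom, so none of these pairs agreed within sampling noise; pairs across groups were not compared.

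Tests on the counts used edgeR 4.0.16 under R 4.3.3: TMM scaling, the expression filter on groups (13375 genes tested), robust quasi-likelihood F-tests on all 18 libraries with 1 mean per group (12 residual degrees of freedom; biological coefficient of variation 0.219), and Benjamini-Hochberg adjustment over all tested genes. Errors are the log2 fold change over the root of F. Alternatives were DESeq2 1.42.0, RLE size factors, no filter (17958 genes), only the groups compared, a replicate block, limma 3.58.1 on log2(FPKM + 1) (9763 genes at 1 FPKM or more in 3 libraries), leaving out each library, leaving out Blank_4 and B_I_3 and, chosen after seeing the data, leaving out these with H2O2_3 and H_I_1. The scripts were tested on simulated data. The members and lists were chosen with earlier results of these data known. Per-library values and full statistics go to at most 8 called members per comparison, by adjusted p, and to members whose call changes without Blank_4 and B_I_3. The median log2 fold change in Dox against Blank was 0.08 under TMM and 0.04 under RLE, over 13375 genes. With limma on log2(FPKM + 1) of the deposited values it was 0.18, on another scale and over another set of 9763 genes.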

Additional observations from a re-analysis of the deposited data

How the results depend on the processing

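Of 22 called member changes, 11 kept their call in every alternative run: Myh9, Mylk, Cald1, Tpm1, Tpm4 and Actn4 in Dox against Blank, Myh9, Myh10, Mylk and Rhoa in Dox against H2O2, and Csrp2 in D_I against B_I. The spread is estimated from all groups, so a library also enters the error of comparisons it is not part of. The cause of the changes below was not tested.

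Members called with all libraries numbered 10 for Dox and 1 for H2O2 set against Blank, 5 in D_I against B_I, 1 in H_I against B_I and 5 in Dox against H2O2, and 0 in the other comparisons. Leaving out Blank_4 and B_I_3 gave 16 for Dox and 6 for H2O2 set against Blank, 9 in D_I against B_I, 3 in H_I against B_I, 2 in D_I against Dox, 12 in Dox against H2O2 and 1 in the doxorubicin interaction. Leaving out H2O2_3 and H_I_1 as well gave 18, 7, 12, 3, 8 and 9 in these comparisons, 2 in the doxorubicin interaction, and 1 each in B_I against Blank, H_I against H2O2 and the peroxide interaction. Over all 13375 tested genes, that fit called 3829, 686, 3679, 502, 191 and 2571 in the same order and 80 in the doxorubicin interaction. It called 46, 58 and 63 in the comparisons named last. DESeq2 gave 2 in H2O2 against Blank (3.2% of all tested genes), 8 in D_I against B_I (21.8%) and 2 in D_I against Dox (0.157%). The groups compared alone gave 0 in H2O2 against Blank (0.0374% of all tested genes), 0 in H_I against B_I (0.396%) and 10 in D_I against Dox (1.79%). limma gave 2 in H2O2 against Blank, 2 in H_I against B_I, 1 in D_I against Dox and 8 in Dox against H2O2. Over its 9763 genes, limma called 504, 364, 1 and 2210 in the same order. RLE gave 0 in H_I against B_I, where it called 135 of all 13375 tested genes.

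Deviations from the group means correlated at -0.188 to 0.279 between same-numbered libraries of compared groups. Libraries with different numbers were not correlated, so these values cannot settle whether the numbers pair the samples. Only Blank_4 carries its replicate number, so the replicate block fits that library by itself and takes it out of the Blank mean. With the block, 13 members were called in Dox against Blank (18.2% of all tested genes), with Rock2 among those lower (9.32%). It called 10 in D_I against B_I (23.3%), 4 in H_I against B_I (4.61%), 1 in D_I against Dox (0.0299%) and 9 in Dox against H2O2 (17.3%). Leaving out 1 library gave 7 to 12 members for Dox and 0 to 2 for H2O2 set against Blank, 3 (without D_I_1) to 11 (without Blank_4) in D_I against B_I, 0 to 4 (without Blank_4) in H_I against B_I, 0 to 1 in D_I against Dox and in the doxorubicin interaction, 4 to 7 in Dox against H2O2, and 0 to 0 in B_I against Blank, H_I against H2O2 and the peroxide interaction. The matching ranges over all tested genes close this section.

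Directions of some uncalled members turned under the alternatives. The replicate block fits Blank_4 by itself, so for comparisons with Blank it comes close to leaving that library out. The log2 fold change of Myl9 in Dox against Blank was -0.03, and 1.03 with the replicate block, 0.58 with limma and 1.15 without Blank_4 and B_I_3 or without all 4 libraries. Myl6 in the same comparison was -0.11, and 0.29, 0.16, 0.32 and 0.32 under the same settings; Srf was -0.32, and 0.048 with the block and 0.077 without the pair or the 4. Myl6 in H2O2 against Blank was -0.03, and 0.36 with the block, 0.17 with limma, 0.44 without the pair and 0.38 without the 4. Myl9 in H_I against B_I was -0.11, and 0.065, 0.36, 0.86 and 0.83 under those settings. Leaving out 1 library moved Dox against Blank from -0.42 to 1.14 for Myl9, -0.12 to 0.49 for Cnn2, -0.30 to 0.32 for Myl6, -0.0605 to 0.31 for Actb, -0.0712 to 0.65 for Lmod1 and -0.51 to 0.0725 for Srf. It moved H2O2 against Blank from -0.32 to 1.25 for Myl9, -0.14 to 0.48 for Cnn2 and -0.23 to 0.43 for Myl6, and H_I against B_I from -0.44 to 0.85 for Myl9. The highest of these values came without Blank_4 or, in H_I against B_I, without B_I_3.

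Counts over all tested genes moved by more than 1.5 times in most comparisons. H2O2 against Blank had 191 called genes, and 428 with DESeq2, 5 with its 2 groups alone, 504 with limma, 538 without the pair and 686 without the 4. H_I against B_I had 195, and 530 with DESeq2, 53 alone, 616 with the replicate block, 364 with limma and 502 without the 4. D_I against Dox had 0, and 21 with DESeq2, 240 alone, 2 with no filter, 4 with the block, 1 with limma, 19 without the pair and 191 without the 4. H_I against H2O2 had 0, and 81 with DESeq2, 2 with the block, 17 without the pair and 58 without the 4. Dox against H2O2 had 1746, and 2840 without the pair. B_I against Blank had 0, and 1 with DESeq2 or no filter, 3 without the pair and 46 without the 4. The doxorubicin interaction had 0, and 3 with DESeq2 or the block, 1 with no filter, 8 without the pair and 80 without the 4; the peroxide interaction had 0, and 2 with DESeq2, 1 with limma and 63 without the 4. Leaving out 1 library gave 1903 to 3258 for Dox and 99 to 262 for H2O2 set against Blank, 1638 to 3148 in D_I against B_I, 37 (without H_I_1) to 560 (without Blank_4) in H_I against B_I, 838 to 2322 in Dox against H2O2, 0 to 10 in H_I against H2O2, 0 to 4 in B_I against Blank, D_I against Dox and the doxorubicin interaction, and 0 in the peroxide interaction.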
